A study of Mus musculus with 8 samples.

Results

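The genes described here belong to the superoxide, hydrogen peroxide, metal and methionine repair defence and were followed in mouse liver whose hepatocytes lack thioredoxin reductase 1. They are Sod1, Sod2, Sod3, Ccs, Cat, Mt1, Mt2, Msra and Msrb2, and all 9 were measured, by 19 probe sets annotated to them alone, of 18193 genes and 45037 probe sets in all. Livers lacking it in hepatocytes came from 4 txnrd1 cond/- albCre1 mice (animals 69, 72, 73 and 81) and the controls from 4 txnrd1 cond/+ albCre0 mice (animals 70, 71, 80 and 82), called txnrd1-/- and txnrd1cond/+ below after the hepatocyte genotype. All 8 were young adult males housed singly for 10 days and harvested in the afternoon, and whole liver RNA of each was read on 1 Affymetrix mouse expression array.

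In txnrd1-/- mice a Cre transgene under the albumin promoter disrupts the conditional allele, and it is active in hepatocytes. Their other liver cells still carry that allele intact beside a null one. The txnrd1cond/+ mice carry 1 conditional and 1 wild type allele and no Cre transgene, so the hepatocyte deletion, the Cre transgene and the null allele in other cells cannot be told apart. In whole liver RNA, fewer cells of a type and less RNA per cell cannot be told apart either. The study asked which transcripts change when hepatocytes live without this reductase.

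Superoxide dismutases turn superoxide into hydrogen peroxide and oxygen, and catalase breaks the peroxide down, mostly inside peroxisomes. Metallothioneins are small cysteine-rich proteins that hold zinc and copper, and in liver their genes are known to respond to metals, glucocorticoids and inflammation. Methionine sulfoxide reductases repair oxidized methionine with electrons from thioredoxin, which thioredoxin reductases recharge.

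The results turn on Mt1 and Mt2, which lie 5315 bases apart on chromosome 8, so their promoters are shown. RefSeq promoter sequences (build GRCm38.p6) matched 6 of the 9 members: Mt1, Mt2, Sod1, Sod2, Cat and Msrb2. Both stretches run on the plus strand, 5′ to 3′, from 250 bases before the start site of the RefSeq table to 30 bases after it: chr8:94172368-94172647 for Mt2 and chr8:94178839-94179118 for Mt1. For Mt1 that site lies 206 bases inside the gene record, and other start sites were not searched. Capitals mark 7-letter cores of the metal response element, TGCACNC or TGCGCNC, and the 9-letter core of the antioxidant response element, TGACNNNGC, each searched on both strands.
Mt2: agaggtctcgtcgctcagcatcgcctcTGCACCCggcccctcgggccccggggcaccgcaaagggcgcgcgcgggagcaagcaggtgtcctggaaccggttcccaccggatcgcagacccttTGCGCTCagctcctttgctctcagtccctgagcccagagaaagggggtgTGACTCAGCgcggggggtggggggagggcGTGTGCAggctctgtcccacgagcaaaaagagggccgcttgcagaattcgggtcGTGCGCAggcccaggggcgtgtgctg
Mt1: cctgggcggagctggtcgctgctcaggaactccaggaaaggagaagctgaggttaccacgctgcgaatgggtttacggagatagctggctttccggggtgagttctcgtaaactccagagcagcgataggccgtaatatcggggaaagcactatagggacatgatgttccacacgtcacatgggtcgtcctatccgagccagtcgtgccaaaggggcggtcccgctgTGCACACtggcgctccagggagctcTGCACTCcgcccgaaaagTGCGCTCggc

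In the 300 bases searched, the Mt2 promoter held 4 metal response cores and the Mt1 promoter held 3. Cores at positions 3 to 9 and 21 to 27 of Mt1, and 5 to 11 of Mt2, lay after the start site used. The counts hold for these windows alone. Such a core occurred in 25.7% of 32851 promoters of 300 bases, and 4 or more in 0.518%. The antioxidant response core did not occur in the window searched for Mt1, and bases past the end of that window were not searched. It occurred in 12.4% of the promoters, and in that of Mt2 as TGACTCAGC. It also occurred 1 time each in the Sod1 and Msrb2 promoters, as GCGTGGTCA and GCAGCGTCA on the strand shown, and neither core occurred in those of Cat and Sod2. No 2 cores overlapped. A match describes letters and is no evidence of a bound site.

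The values are linear ratios, each probe set standing near a median of 1 over the 8 arrays, so signal levels are not kept and levels of different genes could not be compared. For the same reason the ratios do not show whether a cell type is present, only whether its markers differ between livers. Nqo1, a quinone reductase known as a target of the Nrf2 factor, was 5.97-fold higher in txnrd1-/- livers (log2 fold change 2.58, SE 0.24, adjusted p = 0.00585, limma), so the arrays carried a strong difference between the genotypes. The 3 Txnrd1 probe sets, 1 higher and 2 lower, had log2 fold changes from -0.71 to 1.11. Their unadjusted p in limma ran from 0.00154 to 0.0105, and each adjusted p, over all probe sets, was 1.00. These probe sets may lie outside the deleted part and do not check the labels. Over 6 to 8 hepatocyte, Kupffer cell, endothelial and stellate marker genes the median log2 fold change was between -0.11 and -0.04. The 5 pancreatic acinar genes measured averaged a log2 ratio of 4.20 in the txnrd1cond/+ liver of animal 71, against -0.29 to 0.09 in the other 7.

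No member was called as different between the genotypes. By an adjusted p of at most 0.05 with a 1.5-fold difference, the count of members called was 0 higher and 0 lower, where 14 genes (0.077%) were higher and 1 gene (0.0055%) was lower over the array. At the fold and p thresholds of the study with the p left unadjusted, 0 members were called, against 0.572% of genes higher and 0.0824% lower. The minimum signal of the study could not be applied to ratios, and the study counted probe sets rather than gene means. An unadjusted p alone called 0 members, against 1.71% of genes higher and 0.605% lower. Of the 19 probe sets, 0 passed an unadjusted p with 1.5-fold, against 0.484% of all probe sets higher and 0.0777% lower. The 2 genotypes overlapped in all 9 members, while 1.71% of 18192 genes without empty values did not overlap. With 9 members, shares this small would give less than 1 call, so these zeros do not set the members apart from the rest of the array. The members differed among themselves mainly in their spread between animals.

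**Figure D1:**
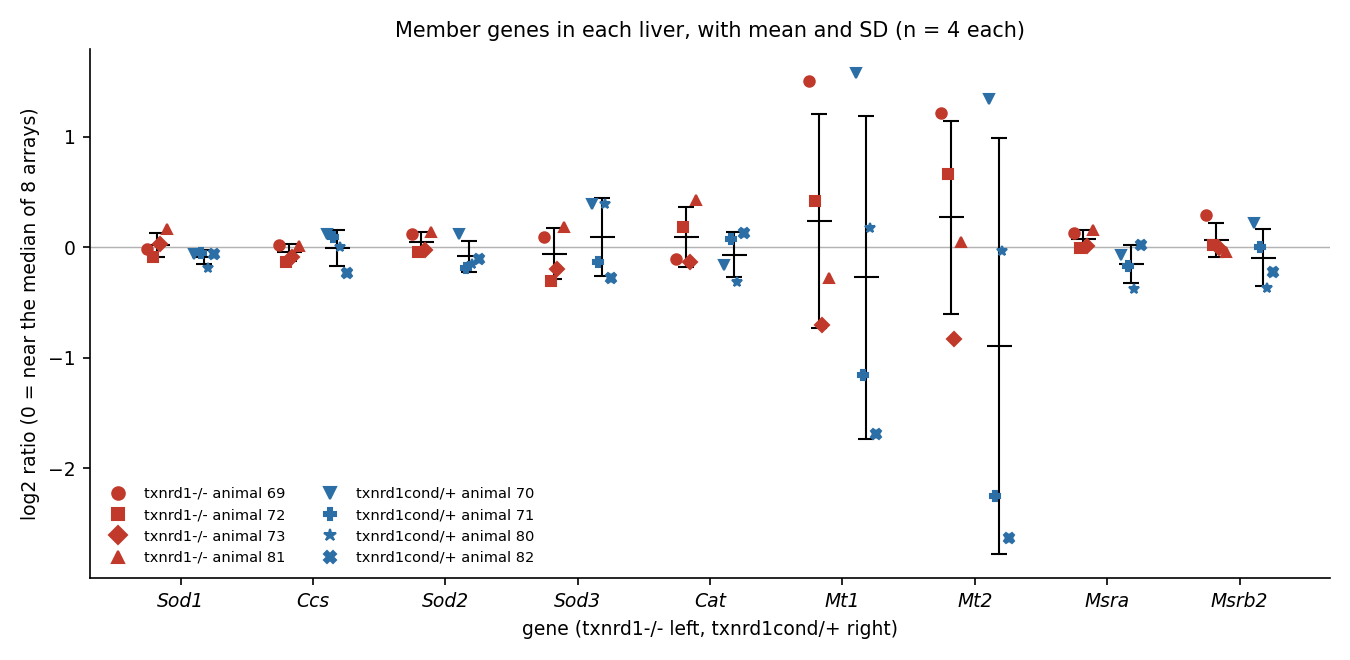
Log2 ratio of each member gene (mean of its probe sets) in each of 8 livers, with the mean and SD of each genotype (n = 4); txnrd1-/- livers are left and txnrd1cond/+ livers right for each gene. Mt1 and Mt2 spread over several log2 units in both genotypes, while the other 7 genes stay close to 0 and every pair of groups overlaps.

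Sod1, the copper and zinc dismutase of the cytosol, had ratios of 0.989, 0.940, 1.02 and 1.12 in txnrd1-/- animals 69, 72, 73 and 81, against 0.960, 0.965, 0.880 and 0.957 in txnrd1cond/+ animals 70, 71, 80 and 82. In all, 3 of the 4 txnrd1-/- livers stood above all 4 txnrd1cond/+ livers, and that of animal 72 stood below 3 of them. The log2 fold change was 0.11 (SE 0.096, 95% confidence interval -0.10 to 0.33, adjusted p = 1.00, limma). This interval holds no difference of 1.5-fold in either direction.

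Sod1 was read by 5 probe sets, which did not follow each other over the livers. Their 10 pairwise correlations ran from r = -0.76 to 0.31 over 8 livers, so the gene mean averages unlike profiles. One of them, 1459976_s_at, has the letter s in its name, which marks a design whose probes can match several transcripts. Another, 1447761_x_at, has the letter x in its name, and what its probes match was not checked. The lowest r, -0.76, was that of 1447761_x_at with 1435304_at. The probe set 1451124_at stayed between 0.952 and 1.10 in txnrd1-/- livers and between 0.923 and 1.067 in txnrd1cond/+ livers. The probe set 1440222_at reached 1.344 and 1.51 in txnrd1-/- animals 73 and 81, against 0.867 to 1.169 in txnrd1cond/+ livers. The 5 log2 fold changes ran from -0.05 to 0.27, each with an interval that spans 0. With only the most variable Sod1 probe set, 1435304_at, the sign of the gene turned and its log2 fold change was -0.05.

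Ccs, the chaperone that hands copper to Sod1, was read by 1 probe set. It stood at 1.015, 0.911, 0.943 and 1.007 in txnrd1-/- livers, against 1.084, 1.068, 1.003 and 0.849 in txnrd1cond/+ livers, whose range enclosed all 4 txnrd1-/- values. Its log2 fold change was -0.04 (SE 0.108, 95% confidence interval -0.28 to 0.20).

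Sod2, the manganese dismutase of mitochondria, had gene ratios of 1.09, 0.972, 0.981 and 1.10 in txnrd1-/- livers, against 1.09, 0.876, 0.902 and 0.928 in txnrd1cond/+ livers. The control liver of animal 70 matched the highest txnrd1-/- livers and the other 3 controls stood below all 4. The log2 fold change was 0.13 (SE 0.106, 95% confidence interval -0.11 to 0.37), and its 4 probe sets gave values between 0.09 and 0.16. Over the livers these probe sets did not follow each other closely, with pairwise r from -0.14 to 0.55. The Sod2 gene mean therefore also averages unlike profiles.

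Sod3, the dismutase secreted into the extracellular space, had ratios of 1.06, 0.807, 0.873 and 1.13 in txnrd1-/- livers, against 1.32, 0.913, 1.31 and 0.824 in txnrd1cond/+ livers. The 2 highest livers were both txnrd1cond/+, animals 70 and 80. The log2 fold change was -0.15 (SE 0.185, 95% confidence interval -0.57 to 0.26). Its 2 probe sets followed each other over the livers (r = 0.81, exact permutation p = 0.0219, adjusted p = 0.104 over 19 pairs of probe sets; rho = 0.81, exact permutation p = 0.0218, adjusted p = 0.177; r = 0.82 without the 2 farthest livers).

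Catalase, Cat, had ratios of 0.926, 1.13, 0.911 and 1.35 in txnrd1-/- animals 69, 72, 73 and 81, against 0.893, 1.05, 0.807 and 1.09 in txnrd1cond/+ animals 70, 71, 80 and 82. The 4 highest livers and the 4 lowest each held 2 livers of either genotype. The values were graded rather than 2 separate sets: the step from 1.13 to 1.35 within the upper 4 exceeded that from 0.926 to 1.05 between them. The 2 Cat probe sets gave the same order closely (r = 0.95, exact permutation p = 7.69e-04, adjusted p = 0.0146; rho = 0.93, exact permutation p = 0.00223, adjusted p = 0.0424; r = 0.87 without the 2 farthest livers). Between the genotypes the log2 fold change was 0.16 (SE 0.156, 95% confidence interval -0.19 to 0.51, adjusted p = 1.00, limma).

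The 4 highest Cat values fell on the arrays where the bacterial hybridization controls were below 0. These controls are RNAs added to the hybridization mix that report on the array rather than the liver. On the 4 arrays where these controls averaged between -0.51 and -0.19 on the log2 scale, animals 72, 81, 71 and 82, Cat stood at 1.05 to 1.35. On the 4 arrays where they averaged between 0.15 and 0.43, animals 69, 73, 70 and 80, Cat stood at 0.807 to 0.926. Over the 8 arrays Cat and these controls had r = -0.84 (exact permutation p = 0.0132) and rho = -0.71 (exact permutation p = 0.0576). Without the 2 farthest arrays r was -0.93, and no correlation was taken within either side of 0. The relation was singled out from 27 relations of the 9 members with 3 array measures. Of these, 0 passed adjustment, and the lowest adjusted p was 0.294 (exact permutation). Sod3 with the 5′ minus 3′ actin measure (r = 0.78, exact permutation p = 0.0327; rho = 0.79, exact permutation p = 0.0279; r = 0.77 without the 2 farthest arrays) and Sod2 with the poly-A spikes (r = 0.76, exact permutation p = 0.0283; rho = 0.69, exact permutation p = 0.0694; r = 0.47 without the 2 farthest arrays) had that same adjusted p for r. The part of the array in the Cat values was not tested. On each side of 0 of the controls, both txnrd1-/- livers stood above both txnrd1cond/+ livers, with log2 differences of 0.21 and 0.11 (n = 2 each, no test). With the controls as a covariate the log2 fold change was 0.17 (SE 0.102, 95% confidence interval -0.06 to 0.40, adjusted p = 1.00, limma).

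**Figure D2:**
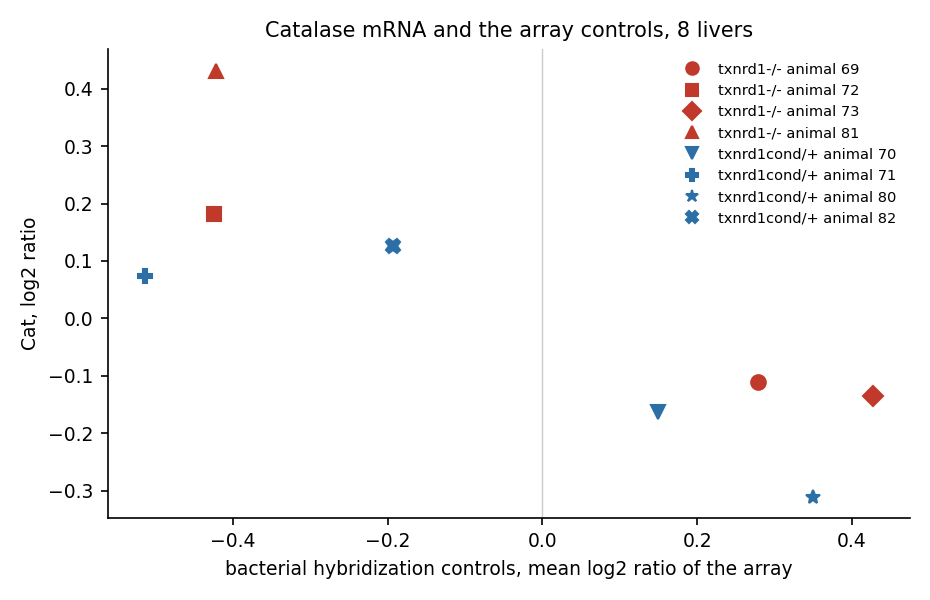
Log2 ratio of Cat against the mean log2 ratio of the bacterial hybridization controls on the same array, 1 point per liver. The 4 arrays with controls below 0 hold the 4 highest Cat values and each side of 0 holds 2 txnrd1-/- and 2 txnrd1cond/+ livers.

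Mt2 had ratios of 2.317, 1.58, 0.564 and 1.031 in txnrd1-/- animals 69, 72, 73 and 81, against 2.537, 0.21, 0.98 and 0.161 in txnrd1cond/+ animals 70, 71, 80 and 82. The 2 highest livers, animals 69 and 70, were of different genotypes, and the 2 lowest, 71 and 82, were both txnrd1cond/+. The highest and lowest livers differed 4.11-fold within txnrd1-/- and 15.8-fold within txnrd1cond/+. Between the genotypes the geometric means differed 2.24-fold (95% confidence interval 0.629 to 7.997, log2 fold change 1.17, SE 0.820, adjusted p = 1.00, limma; exact 2-sided permutation p = 0.314, where 0.0286 is the smallest possible). The interval spans both a lower level and one several times higher, so the arrays could not show a difference of the size estimated.

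Mt1 had gene ratios of 2.85, 1.34, 0.615 and 0.824 in txnrd1-/- livers, against 2.98, 0.448, 1.13 and 0.311 in txnrd1cond/+ livers. The order of the animals was close to that of Mt2, with 69 and 70 highest and 71 and 82 lowest. The highest and lowest livers differed 4.63-fold within txnrd1-/- and 9.60-fold within txnrd1cond/+. The log2 fold change between the genotypes was 0.51 (SE 0.693, 95% confidence interval -1.04 to 2.06, adjusted p = 1.00, limma; exact 2-sided permutation p = 0.571).

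The size of the metallothionein difference rested on single animals. Leaving out 1 liver at a time gave log2 fold changes of 0.59 to 1.91 for Mt2 and 0.04 to 1.13 for Mt1. Without animal 71, the liver with the acinar genes, they were 0.71 for Mt2 and 0.22 for Mt1, and the lowest values of both came without txnrd1cond/+ animal 82. Without txnrd1cond/+ animal 70, Mt2 reached an unadjusted p = 0.0169 in limma with a log2 fold change of 1.91, and an adjusted p of 1.00. Between animals numbered 69 to 73 the log2 difference was 0.80 for Mt2 and 0.20 for Mt1 (n = 3 and 2), and between those numbered 80 to 82 it was 1.38 for Mt2 and 0.48 for Mt1 (n = 1 and 2, no test). The sign for both genes differed between the arrays with hybridization controls below and above 0, and so did that for Sod3 and Ccs. On arrays with hybridization controls below 0, the log2 difference was 2.79 for Mt2 and 1.49 for Mt1, and on those above 0 it was -0.46 for Mt2 and -0.47 for Mt1 (n = 2 each, no test). With the controls as a covariate it was 1.14 for Mt2 and 0.49 for Mt1. Over the 8 arrays these controls had r = 0.35 and rho = 0.12 with Mt2, and r = 0.40 and rho = 0.21 with Mt1. The adjusted p for r was 0.754 for both (exact permutation, 27 relations).

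Mt1 was read by 2 probe sets. The probe set 1451612_at stood at 3.675, 1.267, 0.367 and 0.74 in txnrd1-/- livers, against 4.643, 0.446, 1.318 and 0.295 in txnrd1cond/+ livers. The probe set 1422557_s_at stood at 2.204, 1.411, 1.031 and 0.917 in txnrd1-/- livers, against 1.913, 0.451, 0.966 and 0.327 in txnrd1cond/+ livers. The letter s in the second name marks a design whose probes can match more than 1 transcript. The 2 sets ranked animals 69 and 70 highest and 71 and 82 among the lowest, with animal 73 the main difference between them (r = 0.86, exact permutation p = 0.00759, adjusted p = 0.0721 over 19 pairs of probe sets; rho = 0.79, exact permutation p = 0.0279, adjusted p = 0.177; r = 0.85 without the 2 farthest livers). Their log2 fold changes were 0.16 and 0.86, with intervals of -1.83 to 2.15 and -0.28 to 1.99.

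**Figure D3:**
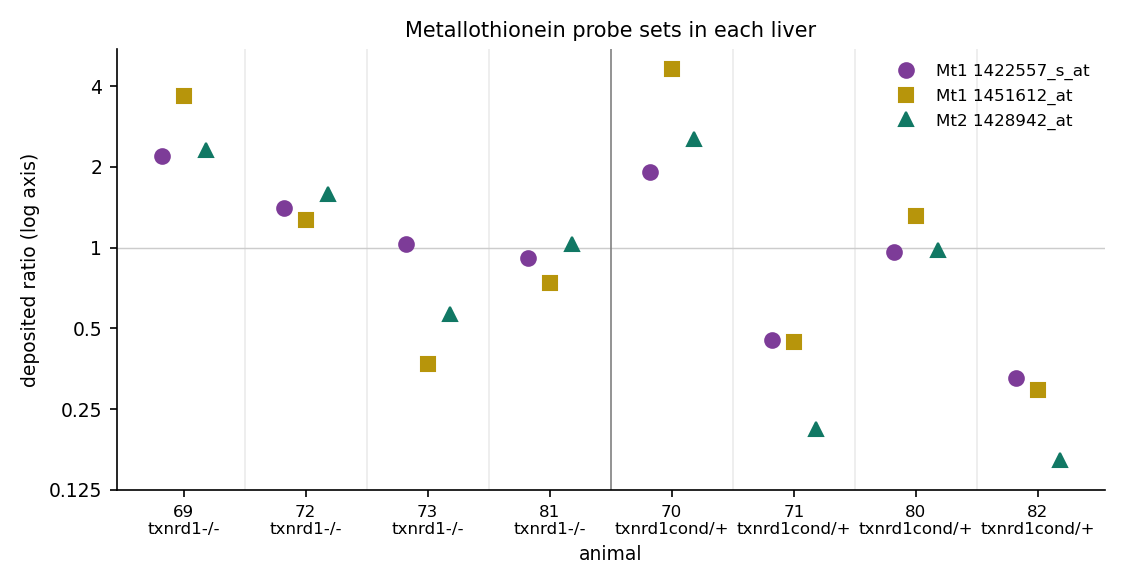
Deposited ratio (log axis) of the 2 Mt1 probe sets and the Mt2 probe set in each of 8 livers, txnrd1-/- livers left and txnrd1cond/+ livers right of the line. Animals 69 (txnrd1-/-) and 70 (txnrd1cond/+) are highest with every probe set, and animals 71 and 82 are lowest with 1428942_at and 1422557_s_at.

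Mt1 and Mt2 were the only members that varied together past the adjusted threshold. Over 8 livers r was 0.96 (exact permutation p = 5.46e-04, adjusted p = 0.0196 over 36 pairs of members) and rho was 0.98 (exact permutation p = 3.97e-04, adjusted p = 0.0143). Without the 2 livers farthest from the median r was 0.92, and for the deviations from each genotype mean it was 0.97. The order was therefore shared within genotypes. Without animal 72 or animal 80 the correlation was as high, at r = 0.96 in both cases, but the adjusted p was 0.0786 and 0.0821. The next pair was Sod1 with Msra (r = 0.78, exact permutation p = 0.0302, adjusted p = 0.351; rho = 0.67, exact permutation p = 0.0831, adjusted p = 0.495), and its r was 0.31 without the 2 farthest livers.

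**Figure D4:**
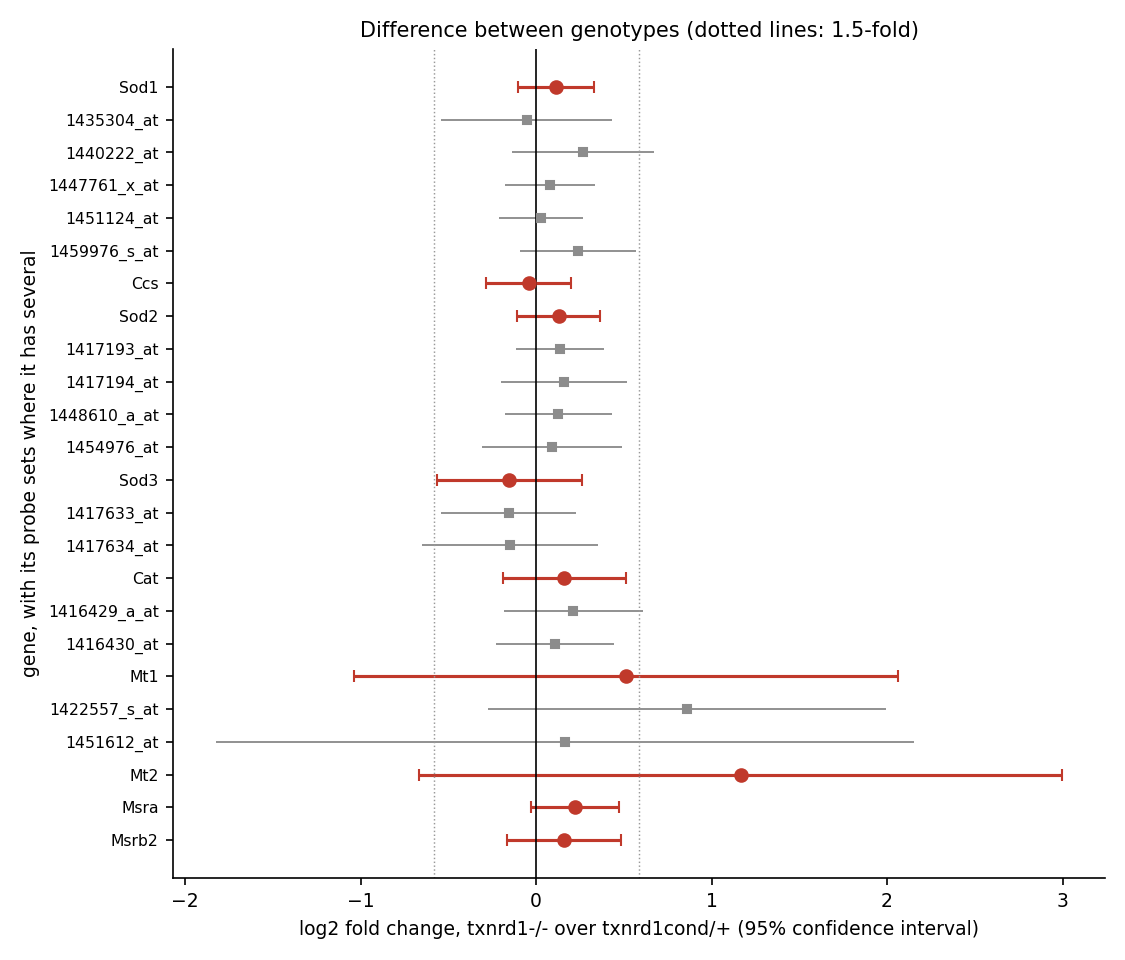
Log2 fold change of each member gene (circles) and, where it has several, of its probe sets (squares), txnrd1-/- over txnrd1cond/+, with the 95% confidence interval from limma. Every interval spans 0, and those of Mt1 and Mt2 extend far past 1.5-fold.

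The spread between livers of 1 genotype, pooled over both, separated the metallothioneins from the other members. It was an SD of 1.47 on the log2 scale for Mt2 and 1.24 for Mt1, where the median gene had 0.20. These SDs ranked 32 and 50 of 18192 genes. The other 7 ran from 0.089 for Sod1 to 0.298 for Sod3, with Sod2, Ccs and Msra below the median gene and Cat and Msrb2 just above it. The low value of Sod1 averages its unlike probe sets: with the most variable of them its SD was 0.355, above the median of 0.276 that genes had under that choice. For Sod2 that choice gave an SD of 0.272, just below this median. For Mt2 the SDs were 0.87 in txnrd1-/- and 1.88 in txnrd1cond/+ livers. For Mt1 the SDs were 0.97 in txnrd1-/- and 1.46 in txnrd1cond/+ livers, but this order turned with quantile normalization, to 1.40 in txnrd1-/- and 1.25 in txnrd1cond/+ livers. Without animal 70 the Mt1 SDs were 0.97 in txnrd1-/- and 0.96 in txnrd1cond/+ livers, and without animal 69 that of txnrd1-/- livers was 0.57. The difference of spread between the genotypes was not tested.

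**Figure D5:**
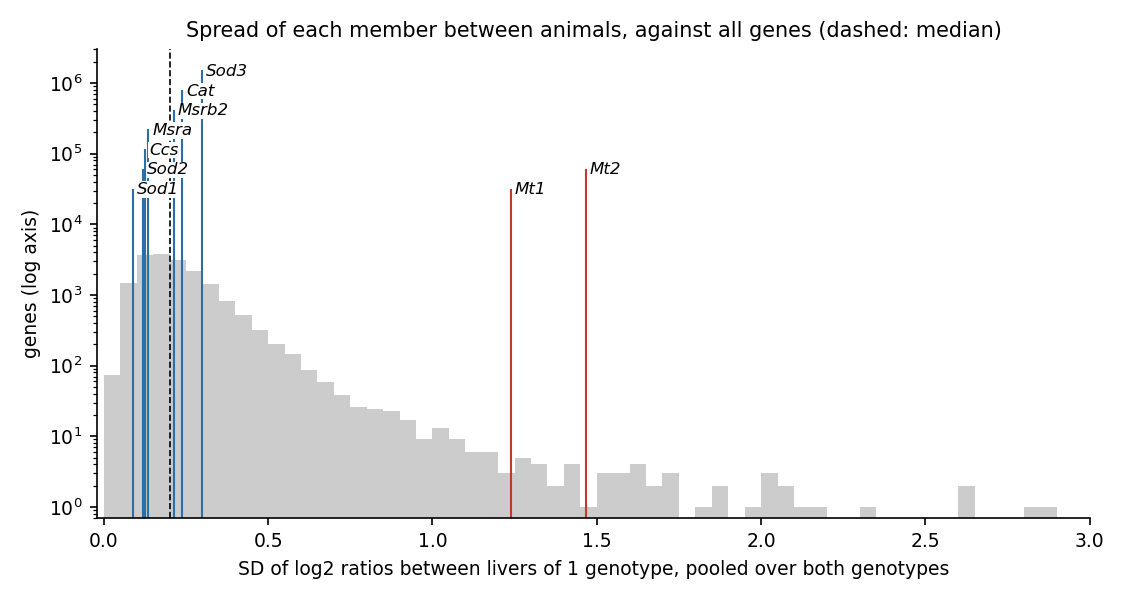
Histogram over 18192 genes (log axis) of the SD of log2 gene ratios between livers of 1 genotype, pooled over txnrd1-/- and txnrd1cond/+ livers; vertical lines mark the members and their heights only separate the names. Mt1 and Mt2 stand at 1.24 and 1.47, far right of the dashed median of 0.20, and the other 7 members stand at 0.298 or less.

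Msra, which repairs the S form of methionine sulfoxide, came closest to a difference among the narrowly spread members. It stood at 1.094, 0.995, 1.005 and 1.116 in txnrd1-/- livers, against 0.954, 0.888, 0.769 and 1.016 in txnrd1cond/+ livers. The control of animal 82 was the single one to reach into the txnrd1-/- range. The geometric means differed 1.17-fold (95% confidence interval 0.980 to 1.39, log2 fold change 0.22, SE 0.112, unadjusted p = 0.0774 and adjusted p = 1.00 in limma; exact 2-sided permutation p = 0.0857). The interval holds no difference of 1.5-fold.

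Msrb2, the mitochondrial reductase of the R form, stood at 1.225, 1.014, 0.995 and 0.97 in txnrd1-/- livers, against 1.165, 1.001, 0.773 and 0.857 in txnrd1cond/+ livers. Animals 69 and 70 were again the highest of their genotypes. The log2 fold change was 0.16 (SE 0.144, 95% confidence interval -0.16 to 0.48).

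Neighbouring genes of the same pathways were counted from lists, and in each of the 8 lists 0 genes were called by either 1.5-fold rule. With the shares of all genes given above (0.077% higher and 0.0055% lower adjusted, 0.572% and 0.0824% unadjusted), less than 1 call would fall in a list of this size, so these zeros do not set the lists apart. An unadjusted p alone was passed by 1 list gene as higher, Pex7, and by 2 as lower, Ncf4 and Msrb3, against 1.71% and 0.605% of all genes. The median log2 fold change over all genes was 0.00. It was 0.12 over 10 genes of copper delivery, of which Sco2, a copper chaperone of cytochrome oxidase, had the largest value (0.28, 95% confidence interval -0.45 to 1.01). Over 9 genes of the metal response and of zinc or manganese transport the median was -0.06. Slc39a14, a zinc, manganese and iron importer, had the largest value there (-0.34, 95% confidence interval -0.68 to 0.0021), and Mtf1, the factor that binds metal response elements, had -0.0091 (95% confidence interval -0.24 to 0.22).

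Among 8 of 10 listed peroxisomal oxidases, which make the peroxide that catalase removes, the median was -0.0028, and Acox2, an oxidase of bile acid side chains, had the largest value (0.38, 95% confidence interval -0.08 to 0.84). Among 11 of 13 genes for import into peroxisomes the median was 0.08 and Pex13, a docking protein of the import machinery, had the largest value (0.45, 95% confidence interval -0.09 to 1.00). Pex7, a receptor that carries proteins to peroxisomes, had 0.31 (95% confidence interval 0.07 to 0.55, unadjusted p = 0.0165 and adjusted p = 1.00 in limma). Among 7 of 10 superoxide-producing oxidases the median was -0.09 and Ncf4, a cytosolic subunit of the phagocyte oxidase, had the largest value (-0.38, 95% confidence interval -0.70 to -0.07, unadjusted p = 0.0220 and adjusted p = 1.00 in limma). Among the 6 other methionine sulfoxide reductases, thioredoxins and their reductases the median was 0.01. Msrb3, the reductase of the endoplasmic reticulum, had the largest value there (-0.34, 95% confidence interval -0.61 to -0.08, unadjusted p = 0.0161 and adjusted p = 1.00 in limma).

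Metallothionein genes are textbook targets of glucocorticoids and of the acute phase response, so both lists were read in each liver. Between the genotypes the median log2 fold change was -0.19 over 8 glucocorticoid response genes, with Sgk1, a kinase induced by glucocorticoids, the largest (-0.46, 95% confidence interval -1.47 to 0.56). It was -0.06 over 12 acute phase genes, with Lcn2, an iron-scavenging secreted protein, the largest (0.70, 95% confidence interval -0.36 to 1.77).

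The mean log2 ratio of the acute phase genes was 0.09, 0.12, -0.04 and -0.07 in txnrd1-/- animals 69, 72, 73 and 81, against 0.24, -0.29, 0.10 and -0.12 in txnrd1cond/+ animals 70, 71, 80 and 82. Its correlation with the mean of Mt1 and Mt2 over the 8 livers (r = 0.86, exact permutation p = 0.00496; rho = 0.88, exact permutation p = 0.00724; r = 0.80 without the 2 farthest livers) did not pass adjustment over the 17 lists compared (adjusted p = 0.0843 for r and 0.0607 for rho). Next came the list of other methionine sulfoxide reductases, thioredoxins and their reductases (r = 0.83, exact permutation p = 0.0114, adjusted p = 0.0970; rho = 0.88, exact permutation p = 0.00724, adjusted p = 0.0607; r = 0.71 without the 2 farthest livers), whose r of 0.91 for deviations from the genotype means was above the 0.88 of the acute phase list. The mean log2 ratio of that list only ran from -0.06 to 0.09 over the 8 livers, against -2.16 to 1.46 for the mean of Mt1 and Mt2. For the glucocorticoid list r was 0.71 (exact permutation p = 0.0538, adjusted p = 0.229; rho = 0.79, exact permutation p = 0.0279, adjusted p = 0.119; r = 0.66 without the 2 farthest livers). The 6 neutrophil markers measured gave r = 0.75 (exact permutation p = 0.0314, adjusted p = 0.178; rho = 0.86, exact permutation p = 0.0107, adjusted p = 0.0607; r = 0.73 without the 2 farthest livers). The mean log2 ratio of the neutrophil markers ran from -0.68 to 0.39 in txnrd1-/- livers and from -0.66 to 0.72 in txnrd1cond/+ livers. S100a8 and S100a9 weigh most in that mean, with SEs of 0.91 and 0.70 for the log2 fold change. Those of Ngp, Elane, Mpo and Camp were 0.11 to 0.18. The part of the neutrophil markers in the metallothionein values was not tested. Whole liver RNA mixes hepatocytes, blood and other cells.

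The genes whose profile over the 8 livers was most like each member were ranked by Pearson's r among 18191 others, as a description with no test. For Mt1 these were Cd47 (r = 0.98), Nfkbia (r = 0.96) and Jun (r = 0.96), with Mt2 in place 4. Jun, an immediate early transcription factor, had ratios of 2.74, 1.53, 0.384 and 0.698 in txnrd1-/- livers, against 3.18, 0.603, 1.18 and 0.361 in txnrd1cond/+ livers. It thus had the same highest and lowest control livers as Mt1 and the same highest and lowest txnrd1-/- livers. For Mt2 the list was Mt1 (r = 0.96), Dusp6 (r = 0.95) and Galnt3 (r = 0.94). Dusp6, a phosphatase of the ERK kinases, had 1.84, 1.78, 0.960 and 1.03 in txnrd1-/- livers, against 2.57, 0.659, 0.979 and 0.381 in txnrd1cond/+ livers.

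For Cat the list was Mettl9 (r = 0.96), Hsd17b4 (r = 0.96) and Tmc6 (r = 0.95). Hsd17b4, the peroxisomal bifunctional enzyme of fatty acid oxidation, stood at 0.937, 1.17, 0.768 and 1.37 in txnrd1-/- livers, against 0.865, 1.01, 0.789 and 1.05 in txnrd1cond/+ livers. Its values thus stood above 1 in the same livers as those of Cat. For Sod1 the list was Exosc5, Cidec and 2810459M11Rik (r = 0.97, 0.96 and 0.95), for Sod2 it was Washc5, Zmpste24 and Tmem184a (r = 0.97, 0.96 and 0.96), and for Sod3 it was Aplp2, Ltbp4 and Chd2 (r = 0.98, 0.97 and 0.96). For Ccs it was Msantd2, Serinc5 and Ikbip (r = 0.98, 0.98 and 0.97), and for Msrb2 it was Mrps28, Nudt1 and Prr13 (r = 0.98, 0.97 and 0.96).

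For Msra the list was Tmem120a (r = 0.98), Wdr45 (r = 0.96) and Cyp8b1 (r = 0.96). Cyp8b1, the sterol hydroxylase that makes cholic acid, stood at 1.52, 1.23, 1.15 and 1.93 in txnrd1-/- livers, against 0.682, 0.625, 0.334 and 0.851 in txnrd1cond/+ livers. These 2 groups did not overlap, whereas those of Msra did, by the single control liver of animal 82.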

How the data were processed

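Liver RNA of 4 txnrd1-/- and 4 txnrd1cond/+ mice was hybridized to Affymetrix arrays, 1 for each mouse. The deposited values are linear ratios in which the authors set each probe set near a median of 1 across arrays; the submitters' processing notes name RMA without a version. Arrays have no read depth, so their number limits the precision. The deposited ratios were put on the log2 scale here, 64 control probe sets of 45101 were left out, and 5 empty values stayed empty. Gene symbols came from the annotation of the array platform and were brought up to date with RefSeq; 34945 probe sets had 1 symbol, 932 several and 9160 none. A gene value averages the log2 ratios of all probe sets that name that gene alone. The genotypes were compared with limma 3.58.1 (lmFit and eBayes, 2-sided) in R 4.3.3, with Benjamini-Hochberg adjustment over all genes or probe sets. Calls required 1.5-fold and an adjusted p of 0.05 or less. Correlations were tested with exact permutations of the 8 livers in Python 3.11.15 (numpy 2.4.6) and adjusted over the pairs compared. Figures were drawn with matplotlib 3.10.9. Only the limma comparison and its calling rule were tried on simulated data, at the level of probe sets.

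Named genes are the members, the 3 genes most alike in profile to each, the list gene with the largest change and Nqo1. Txnrd1, Mtf1 and Pex7 were added after their values were seen, and the single neutrophil markers were also named outside this rule. The members and lists were chosen with earlier results of these data known. Alternatives were median-centred and quantile-normalized arrays, linear ratios, a robust prior, array weights, an exact permutation and an unequal-variance comparison gene by gene, other gene summaries, a filter on the SD over arrays in place of the signal filter that ratios do not allow, the range of the animal number, and leaving out each liver. The hybridization controls as a covariate, and the spread under other gene summaries, were added after seeing the data. The livers are separate animals, each read on an array of its own. The p-values of the genotype comparison therefore weigh differences against a spread that mixes animals and arrays. Listed genes without a probe set that names them alone were not analysed here.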

Additional observations from a re-analysis of the deposited data

Results flagged for a closer look

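Sod1 in the txnrd1cond/+ liver of animal 80, at a ratio of 0.880, stood far from the other 3 txnrd1cond/+ livers, which were close together at 0.957 to 0.965. The gap to the nearest of them was 0.906 of the range of the group on the log2 scale, above the 95% critical value of Dixon's test for 4 samples. The gene value averages probe sets that disagree in this liver: 1459976_s_at was the lowest of the 4 controls at 0.684, while 1440222_at was the highest of them at 1.169. The probes of 1459976_s_at can match more than 1 transcript. The flagged group was 1 of 48 groups of 4 livers examined, and chance alone marks about 1 in 20.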

How the results depend on the processing

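No member was called after adjustment with a 1.5-fold difference in any of the 20 alternatives run, and the lowest adjusted p of a member in them was 0.990. By that rule an alternative called at most 0.17% of all genes higher and 0.00852% lower. The exact permutation test (smallest p 0.0286) and the unequal-variance comparison called 0 of 18192 genes. Shares this small would give less than 1 call among the members, so these zeros say nothing on stability. Of 177 refits of member genes, 176 kept the sign. The exception was Sod1 read by its most variable probe set (-0.053). The members Ccs, Msra and Msrb2, could not be fitted under the filter on the SD over arrays. Probe set 1451612_at of Mt1 turned negative with quantile normalization (-0.13), linear ratios (-0.15), array weights (-0.038) and the range of the animal number (-0.084), and ran from -0.43 to 0.93 when 1 liver was left out. The Sod1 probe set 1435304_at turned to 0.063 with array weights and ran from -0.15 to 0.11 without 1 liver. The Sod1 probe set 1451124_at turned to -0.0013 with the range of the animal number and ran from -0.014 to 0.059, and the Sod2 probe set 1454976_at ran from -0.0049 to 0.23. The cause of these turns was not tested.

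An unadjusted p alone called 1 member, Msra, when limma used array weights, a setting that called 2.47% of all genes higher and 0.956% lower by that rule. Without 1 liver, the count of members at an unadjusted p was 0 to 1, both with and without the 1.5-fold minimum, being Mt2 without animal 70 and Msra without animal 82. Over all genes, 0.857% were higher with 1.5-fold and 2.42% with no fold minimum without animal 70, and 1.8% were higher with no fold minimum without animal 82. The count of pairs of members past adjustment was 0 to 1, and the correlation of Mt1 with Mt2 was 0.935 to 0.973. With the most variable probe set the pooled SD was 0.355 for Sod1 and 0.272 for Sod2, both still far below those of Mt1 and Mt2. No paired analysis was possible because the animal numbers are not shared between the genotypes. The 4 arrays per genotype limit what could be seen for Mt1 and Mt2, and signal over background could not be judged from ratios.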
